A study of Mus musculus with 16 samples.

Results

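The Clec genes are the 34 genes, of 54347 in the count table, whose symbol is Clec followed by a number, with or without a letter and a closing digit. The members were picked by symbol alone, and the family was chosen with earlier results of these data known. RNA-seq had been performed on 2 bone marrow populations sorted by FACS after enrichment for c-Kit. LSKs (Lin-Sca-1+c-Kit+) hold the stem cells and multipotent progenitors, and GMPs (Lin-Sca-1-c-Kit+Cd16/32+) hold the granulocyte-monocyte progenitors. URE mice lack the upstream regulatory element, an enhancer of the PU.1 gene *Spi1*, in the germline and not only in the sorted cells, and retain low PU.1 expression. The controls were WT littermates, and all mice were on a C57BL/6 background and 8 to 12 weeks old. Each of the 4 groups (WT LSK, URE LSK, WT GMP, URE GMP) held 4 libraries from 4 mice, 16 libraries in all. The p-values between genotypes within a cell type measure the spread between these mice. Same-numbered LSK and GMP libraries of a genotype matched in Y-linked transcripts, and the labels do not state whether they came from the same mouse. Tests between cell types and of the interaction treat them as independent, except where the replicate number enters the fit. The lineage antibodies were directed at B cells, T cells, erythroid cells and granulocytes, and the Gr1 antibody also binds Ly6C of monocytes.

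C-type lectin receptors are transmembrane proteins with a carbohydrate recognition fold, by which macrophages, dendritic cells and neutrophils bind sugars, lipids and proteins of microbes or dying cells. Activating members signal through the ITAM adaptors encoded by *Fcer1g* and *Tyrobp*, or through a short motif of their own, to the kinase Syk and the adaptor Card9. Inhibitory members carry an ITIM motif that recruits the phosphatase encoded by *Ptpn6*, and others act as ligands of natural killer cell receptors or take up glycoproteins. PU.1 is a transcription factor that many myeloid receptor genes depend on.

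Library totals lay between 20028302 and 29128858 counts, and levels are given as CPM, in which each count is divided by its TMM-adjusted library size. CPM does not take account of gene length, so that levels were compared between groups and not between genes. *Spi1* had 69.6 to 165 CPM in WT LSKs against 1.16 to 4.48 CPM in URE LSKs, and 87.6 to 180 CPM in WT GMPs against 15.2 to 27.5 CPM in URE GMPs, so each library carried the *Spi1* level of its label. The summed level of 7 stem and progenitor markers was 2271 to 4125 CPM in LSKs and 876 to 2431 CPM in GMPs. The summed level of 10 neutrophil lineage markers, which *Elane* and *Mpo* lead, was 1020 to 1856 CPM in LSKs and 54204 to 153510 CPM in GMPs. Y-linked transcripts were above 219 CPM in 3 of 4 WT and 1 of 4 URE libraries of each cell type and under 0.369 CPM in the others. *Xist* had 0.0440 to 3.85 CPM in the libraries high in Y-linked transcripts and 68.1 to 230 CPM in the others. The labels do not state the sex of the mice, but by these transcripts it was partly confounded with genotype. Clec results that change with the Y-linked level are named where they occur. The other genes named were not examined for it.

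Of the 34 Clec genes, 18 had enough counts for a test between genotypes in LSKs, 18 in GMPs, and 21 in at least 1 of the 5 comparisons. The other 13 (*Clec12b*, *Clec18a*, *Clec2e*, *Clec2g*, *Clec2h*, *Clec2j*, *Clec2l*, *Clec2m*, *Clec3a*, *Clec3b*, *Clec4a4*, *Clec4b2*, *Clec4f*) passed the filter in none and reached at most 21 counts in any library. *Clec3a* and *Clec4f* had 0 counts in all 16 libraries, where a count of 0 allows up to 0.164 CPM. A gene was called when its Benjamini-Hochberg adjusted p was below 0.05 and it changed by more than 1.5-fold (edgeR quasi-likelihood test over all genes tested). In LSKs, 6 of the 18 genes were called between genotypes, 3 higher and 3 lower in URE, where 6.14% of all 15154 genes tested were called (2.38% higher, 3.76% lower). In GMPs, 6 of the 18 were called, 2 higher and 4 lower in URE, where 8.30% of all 13829 genes tested were called (4.67% higher, 3.63% lower). Together 9 different genes were called. *Clec4e* and *Clec4d* were higher and *Clec10a* was lower in URE in both cell types. *Clec14a* was called higher in LSKs, *Clec12a* and *Clec2i* lower in LSKs, and *Clec7a*, *Clec4a2* and *Clec9a* lower in GMPs. In all 12 of these calls the 4 URE libraries lay entirely on one side of the 4 WT libraries. Of the genes tested, called or not, 9 of 18 Clec genes lay apart in this way in LSKs, against 12.6% of all genes, and 8 of 18 in GMPs, against 14.9%. When the replicate number entered the fit as a block, 6 of the 18 genes were called in LSKs, where 9.46% of all genes were, and 8 of the 18 in GMPs, where 16.3% were.

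**Figure D1:**
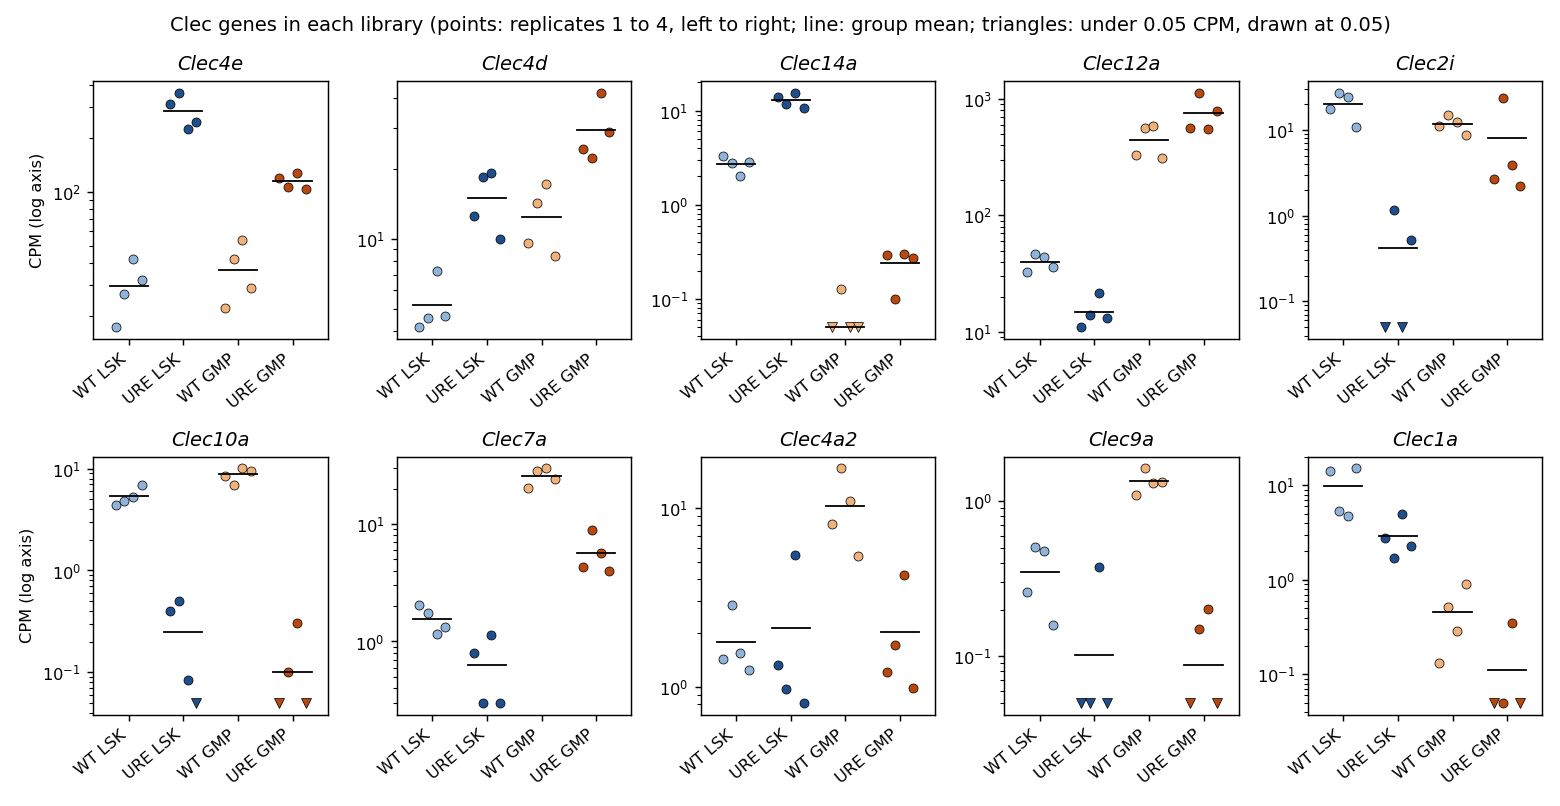
CPM on log axes of the 9 genes called between genotypes and of Clec1a in each of the 16 libraries, with replicates 1 to 4 from left to right, a line at the group mean, and values or means under 0.05 CPM drawn at 0.05. Clec4e and Clec4d are higher in URE than in WT in both cell types, Clec10a is lower in both, and Clec12a is lower in URE than in WT LSKs, with the URE GMPs between 550 and 1123 CPM.

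Of the 18 Clec genes tested in LSKs, the largest rise was that of *Clec4e*, which encodes Mincle, an activating receptor for glycolipids of mycobacteria and fungi that pairs with the *Fcer1g* product. *Clec4e* (ENSMUSG00000030142, chr6:123281789-123289870, minus strand, 4 exons) had 313, 360, 225 and 246 CPM in the 4 URE LSKs and 17.4, 26.9, 42.3 and 32.0 CPM in the WT LSKs. All URE values were far above the highest WT value. The log2 fold change was 3.23 (SE 0.30, adjusted p = 0.000332). In GMPs *Clec4e* had 120, 107, 128 and 104 CPM in URE and 22.3, 41.9, 53.6 and 28.9 CPM in WT, again without overlap, and the log2 fold change was 1.66 (SE 0.28, adjusted p = 0.00647). *Clec4e*, whose share of counts also depends on its gene length, took 62.5 to 83.0% of all Clec counts in the URE LSKs and 14.8 to 26.9% in the WT LSKs. The genotype effect in GMPs minus that in LSKs was −1.59 (SE 0.39), which missed the threshold (adjusted p = 0.0619). With the replicate number as a block the same difference was called (−1.59, adjusted p = 0.0146), and it was also called when WT GMP replicate 1 (−1.78, adjusted p = 0.0379) or WT LSK replicate 3 (−1.80, adjusted p = 0.0411) was left out.

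*Clec4d* encodes MCL, the partner with which Mincle forms a complex, and lies beside *Clec4e* on the opposite strand (ENSMUSG00000030144, chr6:123262111-123275265, 6 exons). It had 12.5, 18.5, 19.1 and 9.98 CPM in URE LSKs and 4.17, 4.57, 7.28 and 4.65 CPM in WT LSKs. All 4 URE values exceeded the highest WT value, and the log2 fold change was 1.504 (SE 0.32, adjusted p = 0.0222). In GMPs it had 24.4, 22.2, 42.3 and 28.6 CPM in URE and 9.54, 14.2, 17.2 and 8.40 CPM in WT, a log2 fold change of 1.27 (SE 0.32, adjusted p = 0.0380). Both calls are near the threshold. The LSK call was lost when URE LSK replicate 2 or WT LSK replicate 1, 2 or 4 was left out (log2 fold change 1.41 to 1.46, adjusted p 0.0560 to 0.0804), and the GMP call when URE GMP replicate 1, 3 or 4 or WT GMP replicate 1, 2 or 4 was left out (1.01 to 1.36, adjusted p 0.0604 to 0.103). With Y-linked expression as a covariate the log2 fold changes were 1.51 (adjusted p = 0.104) and 1.39 (adjusted p = 0.123).

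The stretches before the start sites of both genes are shown because they are the neighbours that rose together. They are RefSeq promoter sequences of GRCm38.p6, written 5′ to 3′ along the gene without bases of annotated exons, at chr6:123289872-123290121 (minus strand) for *Clec4e* and chr6:123261857-123262106 (plus strand) for *Clec4d*. Capitals mark GAGGAA, the core letters of the PU.1 motif, on either strand. Windows of 300 bases, from 250 before to 50 after the start, were given for 26 of the 34 Clec genes (29 windows). GAGGAA on either strand was in 16 of these 29 windows and in 28.3% of all 32851 windows. By gene, it was in the windows of the 3 genes called higher, of 2 (*Clec7a* and *Clec12a*) of the 5 called lower that had a window, and of 10 of the 18 not called between genotypes. The letters begin 123 and 56 bases before the *Clec4e* start, and 240 bases before and 7 and 39 bases after that of *Clec4d*. A match is a description of letters and not a binding site.
Clec4e: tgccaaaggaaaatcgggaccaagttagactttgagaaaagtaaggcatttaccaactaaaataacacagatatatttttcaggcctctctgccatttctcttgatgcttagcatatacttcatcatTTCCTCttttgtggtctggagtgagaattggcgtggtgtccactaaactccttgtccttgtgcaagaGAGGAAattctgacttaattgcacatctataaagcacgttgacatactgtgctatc
Clec4d: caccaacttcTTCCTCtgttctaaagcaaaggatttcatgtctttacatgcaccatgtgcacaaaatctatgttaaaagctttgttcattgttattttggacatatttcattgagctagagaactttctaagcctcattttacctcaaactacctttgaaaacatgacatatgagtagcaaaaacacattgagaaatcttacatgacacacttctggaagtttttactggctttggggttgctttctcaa

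*Clec7a*, *Clec9a*, *Clec5a*, *Clec1b* and *Clec4n* also encode activating receptors, and none of them was called higher in URE where it was tested. *Clec1b* and *Clec9a* did not pass the filter between genotypes in LSKs. *Clec7a* encodes Dectin-1, the receptor for fungal beta-glucan (ENSMUSG00000079293, chr6:129461591-129472779, minus strand, annotated as a polymorphic pseudogene). It had 4.33, 8.83, 5.63 and 4.001 CPM in URE GMPs and 20.4, 28.4, 29.7 and 24.1 CPM in WT GMPs. Every URE value was below the lowest WT value, and the log2 fold change was −2.15 (SE 0.30, adjusted p = 0.00261). In LSKs it had 0.802, 0.301, 1.12 and 0.300 CPM in URE and 2.05, 1.75, 1.15 and 1.32 CPM in WT. These libraries did not overlap either, but the log2 fold change of −1.34 (SE 0.53) was not called (adjusted p = 0.249), and the effects in the 2 cell types were not shown to differ (interaction −0.82, SE 0.56, adjusted p = 0.680). The stretch before the *Clec7a* start (chr6:129472780-129473029, minus strand) is shown as that of 1 of the activating receptors that fell, with GAGGAA in capitals 96 bases before the start.
Clec7a: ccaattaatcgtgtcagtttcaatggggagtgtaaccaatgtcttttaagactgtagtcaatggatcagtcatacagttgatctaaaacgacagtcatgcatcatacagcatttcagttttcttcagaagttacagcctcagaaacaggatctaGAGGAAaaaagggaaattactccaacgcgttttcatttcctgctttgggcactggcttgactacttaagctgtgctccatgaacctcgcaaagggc

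*Clec9a* encodes DNGR-1, a receptor of conventional dendritic cells for exposed actin filaments of dead cells. It had 0, 0.151, 0.201 and 0 CPM in URE GMPs, at most 4 counts in a library, and 1.10, 1.63, 1.31 and 1.34 CPM in WT GMPs. The genotypes did not overlap, and the log2 fold change was −3.81 (SE 0.75, adjusted p = 0.0132), and −4.57 without URE GMP replicate 3. Of the 7 dendritic cell markers tested in GMPs, 5 were lower in URE, and the summed level of the list of 10 was 37.7 to 61.1 CPM in URE GMPs against 332 to 449 CPM in WT GMPs. The part of these cells in the fall of *Clec9a* was not tested. Throughout these bulk samples, fewer cells of a type and less RNA per cell cannot be told apart. *Clec9a* shares 184 exon bases with *Clec1b* on the same strand, and reads there can be assigned to either gene.

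*Clec5a*, whose product MDL-1 signals through the *Tyrobp* product, had 32.5, 129, 34.1 and 38.5 CPM in URE GMPs and 41.8 to 58.5 CPM in WT GMPs. Without URE GMP replicate 2 the URE libraries were below all WT libraries, and with it the groups overlapped. No genotype call was made in either cell type (adjusted p = 0.816 in GMPs and 0.668 in LSKs). *Clec4n*, which encodes Dectin-2, a receptor for fungal mannan, did not exceed 1.31 CPM in any library and was not called in any comparison. *Clec1b* encodes CLEC-2, the platelet receptor for podoplanin, and was not called between genotypes in GMPs (adjusted p = 0.987).

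The adaptor genes *Tyrobp* and *Fcer1g* were lower in URE LSKs. *Tyrobp* had 2.65, 3.65, 3.87 and 2.31 CPM in URE LSKs and 16.3, 37.5, 28.2 and 18.5 CPM in WT LSKs, with a log2 fold change of −3.04 (SE 0.35, adjusted p = 0.000983). *Fcer1g* had 11.7, 14.8, 23.2 and 8.61 CPM in URE LSKs and 30.1, 53.8, 55.4 and 37.1 CPM in WT LSKs, with a log2 fold change of −1.63 (SE 0.35, adjusted p = 0.0239). The genotypes did not overlap in either gene, and *Clec4e* and *Clec4d* were thus higher in the libraries in which the adaptor *Fcer1g* was lower. These were the 2 calls, both lower, among 13 signalling adaptors and kinases tested in LSKs, whose median log2 fold change was −0.32 against 0.00 over all genes. *Card9* was not called (−2.56, SE 1.05, adjusted p = 0.269). With the replicate block 5 of the 13 were called in LSKs, 1 of 12 in GMPs and 4 of 13 in the interaction test, where 0 were called without it. In GMPs edgeR called 0 of 12, with 3 at an unadjusted p below 0.05 and 1 called by DESeq2, with *Fcer1g* at −0.30 (adjusted p = 0.657) and *Tyrobp* at −2.08 (adjusted p = 0.0561). *Syk* was called in neither cell type (adjusted p = 0.464 in LSKs and 0.797 in GMPs).

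Of the genes of ITIM receptors, *Clec12a* was called between genotypes in LSKs and *Clec4a2* in GMPs. *Clec12a* encodes MICL, an ITIM receptor of myeloid cells for uric acid crystals (ENSMUSG00000053063, chr6:129342691-129365303, 8 exons). It had 11.02, 14.0, 21.6 and 13.1 CPM in URE LSKs and 33.0, 46.4, 44.1 and 36.4 CPM in WT LSKs. All URE LSKs were below all WT LSKs, and the log2 fold change was −1.45 (SE 0.26, adjusted p = 0.0101). In GMPs the order was not kept, with 558, 1123, 550 and 783 CPM in URE and 330, 562, 581 and 307 CPM in WT. These groups overlapped, and the log2 fold change of 0.78 (SE 0.30) was not called (adjusted p = 0.176), though it was under the replicate block (0.78, adjusted p = 0.0477). *Clec12a* was the 1 of 21 Clec genes whose genotype effect differed between cell types in the interaction test, where 1.22% of all 15935 genes tested were called (0.866% higher, 0.351% lower). The effect in GMPs exceeded that in LSKs by 2.22 on the log2 scale (SE 0.41, adjusted p = 0.0140), and this call held when any 1 library was left out (1.94 to 2.47). With the replicate block 4 of the 21 were called, where 6.57% of all genes were. Beside *Clec12a* (2.26, adjusted p = 0.000914) and *Clec4e* these were *Clec2i* and *Clec4a2*. *Clec12a* had 63.9 to 77.9% of all Clec counts in GMPs of both genotypes, a share that also depends on its gene length.

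*Clec4a2* encodes DCIR, an ITIM receptor of dendritic cells and monocytes (ENSMUSG00000030148, chr6:123106428-123143999). It had 1.20, 1.71, 4.22 and 0.987 CPM in URE GMPs and 8.13, 16.6, 10.98 and 5.37 CPM in WT GMPs. The groups did not overlap, and the log2 fold change was −2.29 (SE 0.54, adjusted p = 0.0296). This call was lost when URE GMP replicate 1, 2 or 4 or WT GMP replicate 2 or 3 was left out (−2.25 to −2.002, adjusted p 0.0572 to 0.0847) and with Y-linked expression as a covariate (−2.12, adjusted p = 0.171). Without URE GMP replicate 3 it was −2.97. In LSKs the groups overlapped, with 1.32, 0.971, 5.46 and 0.814 CPM in URE and 1.24 to 2.86 CPM in WT (adjusted p = 0.958). The difference between the effects was −2.57 (SE 0.88, adjusted p = 0.207), and −2.41 with the replicate block (adjusted p = 0.0341). It lay between −3.24 and −1.50 when single libraries were left out. Of the 31-base words in *Clec4a2* transcripts, 10.9% also occur in other genes, with 145 of these words in *Clec4a4* and 143 in *Clec4b1*, so that reads can be split between them. The stretch of its RefSeq start that holds no annotated exon (chr6:123122440-123122621, plus strand), shown beside that of *Clec4e* from the same gene cluster, has no GAGGAA.
Clec4a2: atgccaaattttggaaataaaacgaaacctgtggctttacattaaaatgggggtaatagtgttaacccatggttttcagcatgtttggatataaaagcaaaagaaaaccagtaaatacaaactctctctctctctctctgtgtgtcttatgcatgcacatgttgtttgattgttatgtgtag

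The phosphatase gene *Ptpn6*, which acts below ITIM receptors, had 138, 163, 116 and 131 CPM in URE LSKs and 336, 362, 276 and 318 CPM in WT LSKs. The genotypes were apart in all libraries, and the log2 fold change was −1.27 (SE 0.16, adjusted p = 0.00145). In GMPs it was −0.66 (SE 0.17, adjusted p = 0.0432), with 147 to 186 CPM in URE and 192 to 299 CPM in WT. Of the 3 phosphatases tested, *Ptpn6* was the 1 called in either cell type, with medians over the 3 of 0.05 in LSKs and 0.26 in GMPs.

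*Clec10a* fell in both cell types. It encodes MGL1, a receptor of macrophages and dendritic cells for terminal galactose and N-acetylgalactosamine (ENSMUSG00000000318, chr11:70156197-70170834, 10 exons). URE LSKs had 0.401, 0.502, 0.0833 and 0 CPM, and WT LSKs had 4.43, 4.77, 5.29 and 6.89 CPM. URE GMPs had 0, 0.1004, 0.301 and 0 CPM, and WT GMPs had 8.57, 6.95, 10.1 and 9.54 CPM. The genotypes were far apart in both cell types, with 8 counts over the 4 URE GMP libraries against 757 over the WT GMPs. The log2 fold changes were −4.42 in LSKs (SE 0.78, adjusted p = 0.00914) and −6.34 in GMPs (SE 0.77, adjusted p = 0.00148), and both calls held when any 1 library was left out. Of the 8 counts in URE GMPs 6 were in replicate 3, and without it the GMP value was −7.79. The LSK value was −5.03 without URE LSK replicate 2. In its transcripts 14.8% of the 31-base words also occur in other genes, chiefly its neighbour *Mgl2*. *Mgl2* encodes the related receptor MGL2 and had 0, 0, 0.1005 and 0.110 CPM in URE GMPs and 10.6, 20.5, 12.7 and 11.9 CPM in WT GMPs. It also fell in GMPs (−7.90, SE 0.65, adjusted p = 0.000331).

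Markers of monocytes moved with these genes. In LSKs 6 of 10 monocyte and macrophage markers were lower in URE, with a summed level of 15.9 to 28.1 CPM against 133 to 170 CPM in WT. In GMPs 7 of 10 were lower, with 88.4 to 701 CPM against 1741 to 2278 CPM. Dendritic cell markers were lower in 2 of 8 tested in LSKs, where 4 were called with the replicate block, and in 5 of 7 in GMPs. The part of these cells in the falls of *Clec10a*, *Clec7a*, *Clec4a2* and *Clec12a* was not tested. Neutrophil lineage markers were at higher summed levels in URE GMPs, with 72580 to 153510 CPM against 54204 to 72475 CPM in WT, without overlap. In LSKs their summed levels overlapped, with 1020 to 1856 CPM in URE and 1061 to 1688 CPM in WT. Of the 10 markers, 1 was called higher in GMPs, and 2 were called higher and 1 lower in LSKs. With the replicate block 8 were called in GMPs and 7 in LSKs. Their median log2 fold change was 1.38 in GMPs and 0.93 in LSKs, against 0.01 and 0.00 over all genes. The part of these cells in the levels of *Clec4e*, *Clec4d* and *Clec12a* was not tested.

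Genes of the Clec2 family encode ligands of the Nkrp1 receptors of natural killer cells. *Clec2i*, which encodes Clr-g, had 0, 1.17, 0 and 0.514 CPM in URE LSKs and 17.4, 26.9, 24.3 and 10.8 CPM in WT LSKs (ENSMUSG00000030365, chr6:128887588-128898167, 6 exons). All URE values were far below the lowest WT value. The log2 fold change was −5.54 (SE 1.05, adjusted p = 0.0130), and −5.62 with Y-linked expression as a covariate (adjusted p = 0.0646). When single libraries were left out it lay between −6.88 (without URE LSK replicate 2) and −5.13. In GMPs it had 2.65, 23.3, 3.87 and 2.19 CPM in URE and 11.1, 14.9, 12.1 and 8.74 CPM in WT. URE GMP replicate 2 was above all WT libraries and the other 3 below them, and the log2 fold change of −0.54 (SE 0.70) was not called (adjusted p = 0.764). Without replicate 2 it was −1.9995 (adjusted p = 0.00862). The difference between the effects in GMPs and LSKs was 5.01 (SE 1.30, adjusted p = 0.0765). It was called with the replicate block (4.74, adjusted p = 0.00924) and when URE LSK replicate 2 was left out (6.36, adjusted p = 0.0411). Over the fits that left out single libraries the difference lay between 3.53 and 6.36. *Clec2i* shares 11.3% of its 31-base words with other genes, chiefly *Clec2g*. The stretch before its start (chr6:128887337-128887586, plus strand) is shown as that of the gene with the largest fall among those tested in LSKs, and has no GAGGAA.
Clec2i: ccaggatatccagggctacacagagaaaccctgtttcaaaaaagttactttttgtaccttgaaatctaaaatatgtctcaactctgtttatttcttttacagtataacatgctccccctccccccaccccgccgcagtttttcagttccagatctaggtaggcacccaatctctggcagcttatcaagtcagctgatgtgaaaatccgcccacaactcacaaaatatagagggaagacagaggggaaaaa

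*Clec2d*, which encodes Clr-b, was called in no comparison, with 0.771 to 7.46 CPM in URE LSKs, 1.66 to 5.91 CPM in WT LSKs, 1.44 to 4.62 CPM in URE GMPs and 1.01 to 2.95 CPM in WT GMPs. *Clec2f*, annotated as a transcribed pseudogene, had 0, 0.351, 0.1005 and 0 CPM in URE GMPs and 0.571, 0.944, 1.21 and 0.497 CPM in WT GMPs. The groups did not overlap, and the log2 fold change of −2.75 (SE 0.87) was not called (adjusted p = 0.0939). It was called with the replicate block (−3.00, adjusted p = 0.0294) and without URE GMP replicate 2 (−4.34, adjusted p = 0.0257). In LSKs it did not pass the filter, with 0 counts over the URE libraries and 39 over the WT libraries, at least 12-fold lower in URE against a floor of 3 counts over the group.

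**Figure D2:**
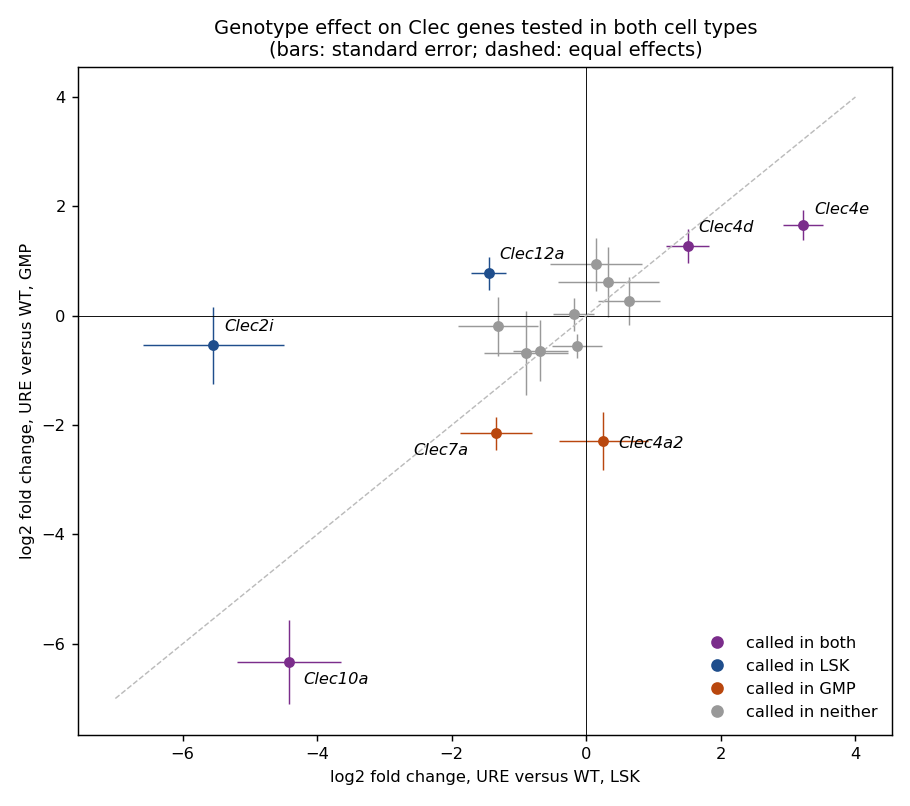
Log2 fold change of URE versus WT in GMPs against that in LSKs for the Clec genes tested in both cell types, with bars of 1 standard error, colours for the cell type in which a gene was called, and a dashed line of equal effects. Clec4e (3.23 in LSKs, 1.66 in GMPs) and Clec10a (−4.42, −6.34) lie in opposite corners, and Clec12a (−1.45, 0.78) lies across the zero line.

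Some Clec genes are known from endothelium or are secreted. *Clec14a* encodes an endothelial lectin of the thrombomodulin family that acts in vessel sprouting (ENSMUSG00000045930, chr12:58264720-58269290, minus strand, 1 exon). It had 14.0, 11.9, 15.5 and 10.7 CPM in URE LSKs and 3.32, 2.75, 2.03 and 2.84 CPM in WT LSKs. The genotypes were well apart, the log2 fold change was 2.21 (SE 0.27, adjusted p = 0.00133), and the call held when any 1 library was left out. In GMPs it did not pass the filter, with 19 counts over the URE libraries and 3 over the WT libraries, a ratio of 6.98 (exact 95% interval 2.05 to 36.8, counting error only), and it was called higher in URE in the joint fit of all 16 libraries (2.68, adjusted p = 0.0258). The defining endothelial markers *Cdh5* and *Kdr* were at most 0.773 and 1.68 CPM in any LSK library. Of the 5 endothelial markers tested in LSKs, 0 were higher and 1 was lower in URE, with summed levels of 134 to 181 CPM in URE and 222 to 314 CPM in WT. In GMPs 1 of 4 was higher and 1 lower, and the summed levels were 229 to 395 CPM in URE and 137 to 203 CPM in WT, without overlap. With the replicate block 2 endothelial markers were called in LSKs and 3 in GMPs, as many as by DESeq2. The part of these cells in the *Clec14a* levels was not tested. The stretch before the *Clec14a* start (chr12:58269291-58269508, minus strand) is shown as that of the third gene that rose, with GAGGAA in capitals 128 bases before the start.
Clec14a: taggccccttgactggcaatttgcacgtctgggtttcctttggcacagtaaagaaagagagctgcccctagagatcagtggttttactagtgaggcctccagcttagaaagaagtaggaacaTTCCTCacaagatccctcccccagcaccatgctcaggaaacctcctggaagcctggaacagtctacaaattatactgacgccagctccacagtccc

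*Clec1a* encodes MelLec, a receptor for fungal melanin of endothelial and myeloid cells. It had 2.81, 1.71, 4.96 and 2.27 CPM in URE LSKs and 14.1, 5.34, 4.74 and 15.1 CPM in WT LSKs, where replicates 1 and 4 of WT were the highest. Replicates 1 and 4 were the closest pair of libraries in every group, by chi-square between their counts. The mean log2 difference of *Clec1a* was −2.48 among replicates 1 and 4 and −0.76 among replicates 2 and 3. The groups overlapped by 1 library, and the log2 fold change of −1.77 (SE 0.50) was not called (adjusted p = 0.0808). It was called without URE LSK replicate 3 (−2.17, adjusted p = 0.0433). *Clec4g*, the liver sinusoid lectin LSECtin, had 1.76, 1.97, 4.71 and 1.46 CPM in URE LSKs and 0.749, 1.41, 1.39 and 0.681 CPM in WT LSKs. These libraries did not overlap, but the log2 fold change of 1.20 (SE 0.51) was not called (adjusted p = 0.293), and 146 of its exon bases overlap an antisense transcript that unstranded libraries cannot separate.

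*Clec11a*, which encodes the secreted growth factor osteolectin, was not called between genotypes (adjusted p = 0.958 in LSKs and 0.197 in GMPs), although the 7.84 to 13.9 CPM of the URE GMPs lay below the 15.96 to 18.6 CPM of the WT GMPs. *Clec16a*, an intracellular regulator of mitophagy that is a lectin by name only, was called in no comparison, with group means between 10.8 and 15.3 CPM. *Clec4a1*, *Clec4a3* and *Clec4b1*, relatives of DCIR, were not called in any comparison. *Clec4a1* had 0.125 to 1.20 CPM in URE LSKs, below the 1.64 to 3.19 CPM of the WT LSKs, with a log2 fold change of −1.31 (SE 0.60, adjusted p = 0.340).

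Among the genes that passed no filter, *Clec18a*, a secreted lectin, had 47 counts over the 4 URE GMPs (0.867, 0.301, 0.352 and 0.877 CPM) and 0 over the WT GMPs, at least 17.3-fold higher in URE against a floor of 3 counts over the group. *Clec4b2*, a relative of DCIR that pairs with the *Fcer1g* product, had 2 counts over the URE GMPs and 68 over the WT GMPs (0.308, 0.858, 1.02 and 0.994 CPM), a ratio of 30.9 higher in WT (exact 95% interval 8.22 to 260). *Clec2g* had 11 counts in URE LSKs, 10 of them in 1 library, and 1 count in WT LSKs.

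Gene position was set beside the changes, since 23 of the 34 genes lie in 2 clusters on chromosome 6 (GENCODE M21, GRCm38). The first, chr6:122921848-123289870, holds 9 genes around Dectin-2 and DCIR, and the second, chr6:128652416-129472779, holds 14 genes from *Clec2j* to *Clec7a*. Within the first cluster genes were called in both directions in GMPs, where *Clec4a2* was lower (−2.29), *Clec4n* was not called (adjusted p = 0.688), and *Clec4d* (1.27) and *Clec4e* (1.66), at the end of the cluster, were higher. In LSKs no gene of this cluster was called lower. In the second cluster *Clec2i* and *Clec12a* were called lower in LSKs and *Clec9a* and *Clec7a* in GMPs. *Clec12a* was called higher in GMPs with the replicate block (0.78, adjusted p = 0.0477) and not without it. In both comparisons without the block the called rises among the Clec genes of chromosome 6 were *Clec4d* and *Clec4e*, which are adjacent.

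**Figure D3:**
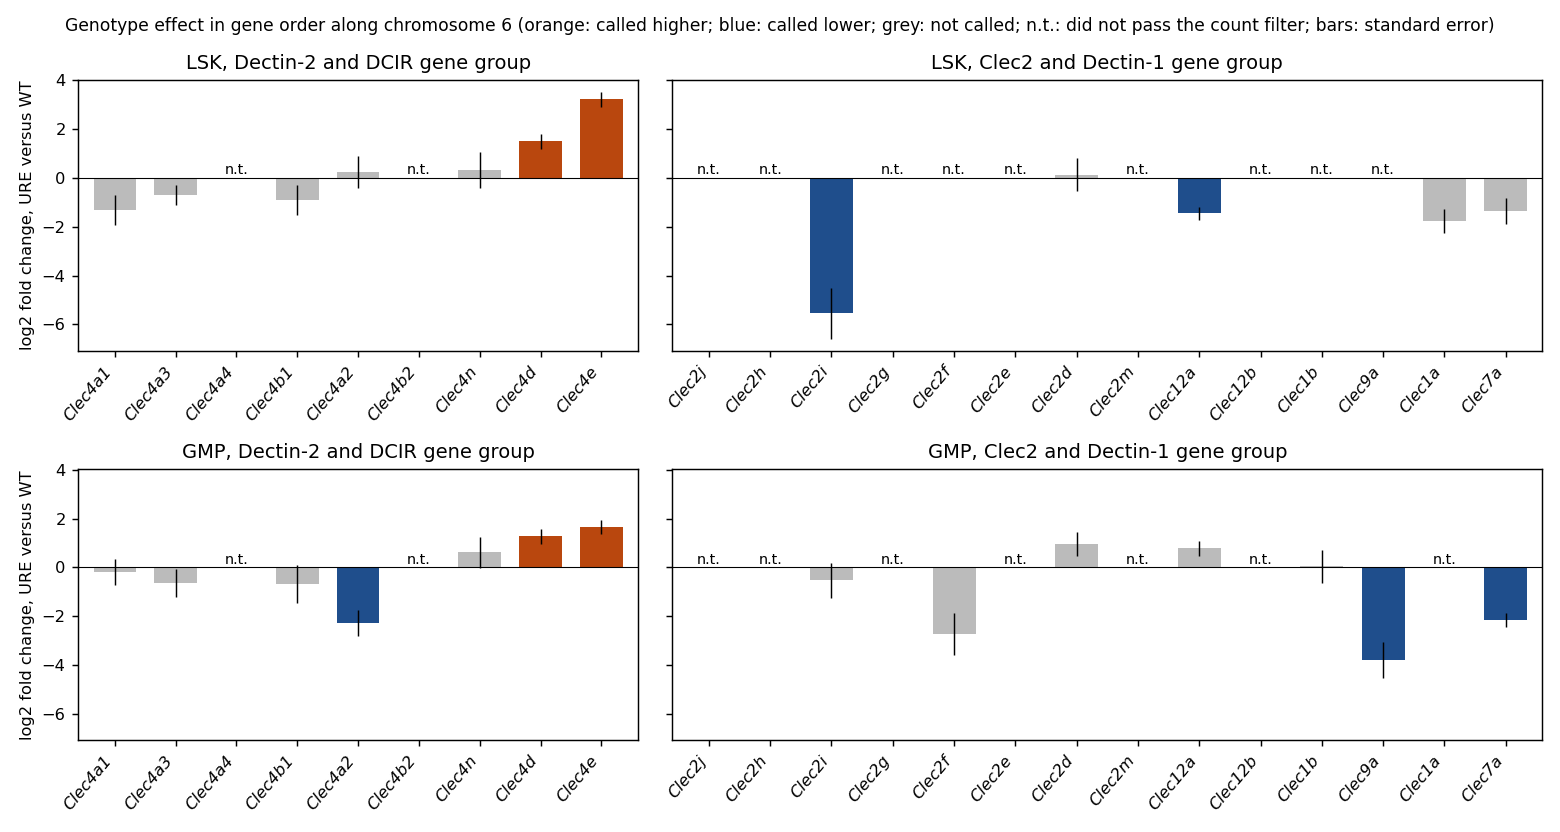
Log2 fold change of URE versus WT for the 23 Clec genes of the 2 clusters in their order along chromosome 6, in LSKs (top) and GMPs (bottom), with bars of 1 standard error, orange for genes called higher, blue for lower, grey for not called, and n.t. for genes that did not pass the count filter. The 2 genes at the right end of the first cluster, Clec4d and Clec4e, are higher in both cell types, and the genes of the second cluster called in these fits without the replicate block are lower.

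The cell type comparison addressed how these genes change from LSKs to GMPs in each genotype. In WT mice 11 of 21 genes tested were called between GMPs and LSKs, where 27.3% of all 14767 genes tested were called (11.5% higher, 15.8% lower in GMPs). In URE mice 10 of 18 were called, where 21.8% of all 14395 genes tested were called (9.20% higher, 12.6% lower). With the replicate block 13 of 21 were called in WT, where 40.9% of all genes were, and 10 of 18 in URE, where 31.9% were. The 8 genes higher in WT GMPs were *Clec5a* (log2 fold change 5.20, SE 0.30), *Clec7a* (4.03, SE 0.27), *Clec12a* (3.47, SE 0.26), *Clec4a2* (2.52, SE 0.42), *Clec11a* (2.36, SE 0.21), *Clec1b* (2.28, SE 0.54), *Clec9a* (1.92, SE 0.41) and *Clec4d* (1.26, SE 0.31), with adjusted p from 1.73e-05 to 0.0140. *Clec14a* (−6.14, SE 0.77), *Clec1a* (−4.41, SE 0.66) and *Clec4g* (−3.64, SE 0.62) were the 3 lower in WT GMPs. The 3 counts of *Clec14a* in WT GMPs were all in replicate 2, and without it the value was −9.07.

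In URE mice *Clec14a* (−5.72, SE 0.40), *Clec1a* (−4.62, SE 0.87) and *Clec4g* (−3.27, SE 0.62) were again lower in GMPs, and *Clec5a* (4.80, SE 0.60), *Clec7a* (3.17, SE 0.55), *Clec12a* (5.66, SE 0.36) and *Clec11a* (1.89, SE 0.38) again higher. Of the 9 counts of *Clec1a* in URE GMPs 7 were in replicate 3, and without it the value was −6.23. That of *Clec5a* was 4.07 without URE GMP replicate 2. *Clec4d* was also called (0.98, SE 0.30, adjusted p = 0.0453), and its call was lost when any URE GMP replicate or URE LSK replicate 1 or 4 was left out (0.74 to 1.10, adjusted p 0.0506 to 0.104) and with Y-linked expression as a covariate (0.97, adjusted p = 0.0549). *Clec4e* was lower in URE GMPs than in URE LSKs (−1.30, SE 0.18, adjusted p = 0.00109) and was not called in WT (0.31, SE 0.34, adjusted p = 0.549). *Clec2i* was higher in URE GMPs (4.23, SE 1.30, adjusted p = 0.0440), a call lost when any URE GMP replicate or URE LSK replicate 1, 3 or 4 was left out (2.79 to 4.55, adjusted p 0.0517 to 0.162). Over all fits that left out a single library the value lay between 2.79 and 5.59. In WT *Clec2i* was not called (−0.76, SE 0.30, adjusted p = 0.0902) except without WT LSK replicate 4 (−0.96, adjusted p = 0.0318) or with the replicate block (−0.71, adjusted p = 0.00478). *Clec10a* was not called in WT (0.72, SE 0.25, adjusted p = 0.0571) except with the block (0.72, adjusted p = 0.00813), by DESeq2 (0.80, adjusted p = 0.00732), with RLE size factors (0.79, adjusted p = 0.0387), without WT GMP replicate 2 (0.89, adjusted p = 0.0418) or without WT LSK replicate 4 (0.88, adjusted p = 0.0468). The comparisons share libraries with those between genotypes and add no independent samples. Of the differences between genotypes in these cell type effects, *Clec12a* was called, as given above.

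Outside the Clec symbols, 45 other genes with a C-type lectin domain were examined. In LSKs edgeR called 0 of the 19 tested between genotypes, with 6 at an unadjusted p below 0.05, 4 called by DESeq2 and 4 called with the replicate block. In GMPs 4 of 21 were higher in URE and 4 lower. The rises were *Klrb1b* (5.57, SE 0.72, adjusted p = 0.00199), an Nkrp1 receptor gene, *Olr1* (2.84, SE 0.57, adjusted p = 0.0147), which encodes the receptor LOX-1 for oxidised lipoprotein, *Cd72* (2.38, SE 0.18, adjusted p = 0.000283), an ITIM receptor gene known from B cells, and *Ly75* (1.80, SE 0.33, adjusted p = 0.00909), which encodes the endocytic receptor DEC-205. The falls were *Mgl2*, *Prg3* (−3.01, SE 0.56, adjusted p = 0.0103) and *Prg2* (−1.89, SE 0.47, adjusted p = 0.0377), which encode granule proteins of eosinophils, and *Selp* (−2.77, SE 0.65, adjusted p = 0.0303), which encodes P-selectin. *Cd72* had 209, 197, 161 and 168 CPM in URE GMPs and 27.5, 38.5, 38.6 and 38.4 CPM in WT GMPs, without overlap. Its effect in GMPs exceeded that in LSKs by 1.63 (SE 0.29, adjusted p = 0.0135). Of the 3 NK and T cell markers tested in GMPs, 2 were higher in URE, and the summed level of the list of 6 was 1327 to 2143 CPM in URE GMPs against 572 to 967 CPM in WT GMPs, without overlap. Of the 6 markers, 1 to 3 had 0 counts in each URE GMP library and 2 to 3 in each WT GMP library. The sums thus rest on few genes and do not by themselves show the presence of such cells. The part of NK and T cells in the *Klrb1b* level was not tested. The median log2 fold change over the tested genes of this list was −0.21 in LSKs and −0.25 in GMPs, against 0.00 and 0.01 over all genes.

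Some libraries stood apart in Clec genes and in markers of other cells. URE LSK replicate 3 had 38.3 CPM of *Clec1b*, against 0.441, 0.0669 and 0.0857 CPM in the other URE LSKs and 0.163 to 0.557 CPM in the WT LSKs. The same library had 351 CPM of the platelet chemokine gene *Ppbp*, against 0.0802 to 0.134 CPM in the other URE LSKs, and 30.8 CPM of the platelet collagen receptor gene *Gp6*, which was at 0 in the others. The summed level of 9 megakaryocyte and platelet markers was 558 to 1348 CPM over the URE LSKs. With this library *Clec1b* had a log2 fold change of −2.64 (SE 1.73, adjusted p = 0.318) in URE GMPs against URE LSKs, and without it 3.07 (adjusted p = 0.0593). The replicate block also turned the direction (0.38, adjusted p = 0.822). *Clec4a2* (5.46 CPM), *Clec4g* (4.71 CPM) and *Clec9a* (0.375 CPM) were highest in that library among the URE LSKs. *Clec9a* shares exon bases with *Clec1b*, so its 9 counts there can include reads of *Clec1b*.

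URE GMP replicate 2 had the highest *Clec5a*, *Clec2i*, *Clec7a* and *Clec12a* of the URE GMPs. It had 435 CPM of the monocyte gene *F13a1*, against 26.4, 27.8 and 46.2 CPM in the other URE GMPs and 789 to 1130 CPM in the WT GMPs. *Irf8*, a transcription factor gene of monocytes and dendritic cells, was also highest there, with 124 CPM in that library and 23.2, 15.7 and 26.4 CPM in the other URE GMPs. The library was also the highest URE GMP in summed neutrophil markers (153510 CPM against 72580 to 106150 CPM) and the lowest in erythroid (68.0 CPM against 261 to 534 CPM) and basophil and mast cell markers (829 CPM against 1442 to 2331 CPM). The part of these cells in the Clec levels was not tested.

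**Figure D4:**
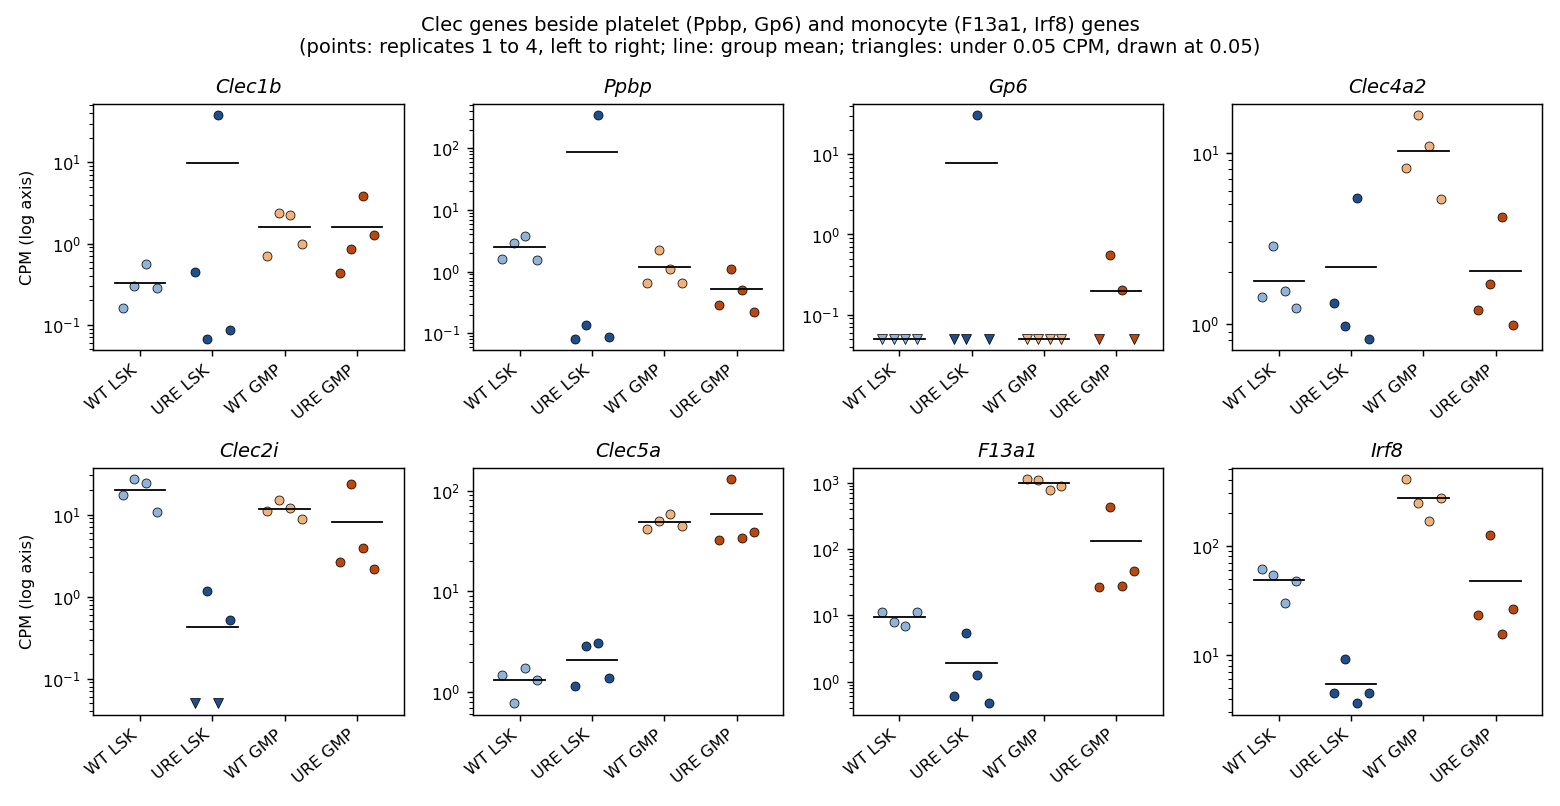
CPM on log axes of 4 Clec genes beside the platelet genes Ppbp and Gp6 and the monocyte genes F13a1 and Irf8 in each of the 16 libraries, with replicates 1 to 4 from left to right, a line at the group mean, and values or means under 0.05 CPM drawn at 0.05. URE LSK replicate 3 stands alone in Clec1b (38.3 CPM), Ppbp (351 CPM) and Gp6 (30.8 CPM), and URE GMP replicate 2 stands above the other URE GMPs in Clec2i, Clec5a, F13a1 and Irf8.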

How the data were processed

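RNA-seq of LSKs and GMPs from URE and WT mice was analysed from the single table of the series. The authors quantified the unstranded low-input libraries (up to 10 ng of RNA, no molecular identifiers) with Salmon on GRCm38, per the labels, summed transcripts to genes with tximport, and deposited estimated counts as whole numbers. The version and annotation release are not given in the sources used here. Groups and replicate numbers come from the labels. The Clec genes and the gene lists were chosen with earlier results of these data known.

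Counts were tested with edgeR 4.0.16 (limma 3.58.1, R 4.3.3), with TMM, filterByExpr (minimum count 10), the quasi-likelihood test and Benjamini-Hochberg adjustment over all genes. Genotypes were compared in each cell type, cell types in each genotype, and the interaction over all 16 libraries. Genes were called when the adjusted p was below 0.05 and the change exceeded 1.5-fold, the interaction by the adjusted p alone. Standard errors are the log2 fold change divided by the root of F. Every Clec gene that passed a filter is named, those called by genotype with each library. The procedure was tested on simulated data. Alternatives were DESeq2 1.42.0, other size factors, filters and thresholds, a joint fit, the replicate block, leaving out each library and, chosen after seeing the data, a covariate of Y-linked transcripts. Replicate numbers pair the samples, since deviations of same-numbered libraries from their group means were correlated in every pair (r from 0.238 to 0.710 over 15935 genes). Libraries with different numbers reached up to 0.397. Between genotypes 3 pairs in each cell type correlated best with their own number, and between cell types 4 pairs in each genotype did. No replicates were near-identical (chi-square per degree of freedom at least 29.6). In every group replicates 1 and 4 were the closest pair (29.6 to 58.4), and the labels name no batch. Intervals and floors (3 counts) cover counting error only. Coordinates and exons are those of GENCODE M21, which holds 54094 of the 54347 genes. Plots were drawn with matplotlib 3.10.9.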

Additional observations from a re-analysis of the deposited data

Results flagged for a closer look

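In 12 of 83 groups of 4 libraries checked, 1 library lay far from the other 3 by Dixon's criterion. Chance meets it in about 1 of 20 groups of independent, normally distributed values. Levels near 0 and genes of the same library are not such values, so this rate is no measure for the 12 groups. Of the 12, 5 were in URE LSK replicate 3, with *Clec1b* at 38.3 CPM, *Clec4a2* at 5.46 CPM, *Clec4g* at 4.71 CPM and *Clec9a* at 0.375 CPM above the others and *Clec4a1*, at 0.125 CPM, below them. The *Clec9a* counts there can include reads of *Clec1b*, with which it shares exon bases. URE GMP replicate 2 was above the other URE GMPs in *Clec5a* (129 CPM) and *Clec2i* (23.3 CPM) and below them in *Clec14a* (0.1004 CPM, 2 counts). That *Clec14a* value lies under the floor of 3 counts, so its level was not readable. URE GMP replicate 3 was above the others in *Clec4b1* (2.31 CPM) and *Clec1a* (0.352 CPM). WT LSK replicate 3 was highest in *Clec4d* (7.28 CPM), and WT GMP replicate 2 was the 1 WT GMP with counts of *Clec14a* (0.129 CPM, 3 counts).

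The genotype effect on *Clec12a* differed between the cell types by a test of the difference itself, and was 2.22 higher on the log2 scale in GMPs than in LSKs.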

How the results depend on the processing

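Across alternatives, 0 of the 34 called results changed sign. Of the 62 results not called, 22 had the other sign under at least 1 alternative and 9 were called under at least 1. With an adjusted p below 0.01 and more than 2-fold change required, 3 genes were called between genotypes in LSKs (2.75% of all genes) and 3 in GMPs (3.65%). In the interaction test, 3 genes were called by DESeq2 (*Clec12a*, *Clec4e* and *Clec2i*; 4.07% of all genes), 4 with the replicate block (6.57%), 0 when an adjusted p below 0.01 was required (0.314%), and 1 to 2 with 1 library left out (0.510 to 1.72%), with 2 when URE LSK replicate 2, WT GMP replicate 1 or WT LSK replicate 3 was omitted. *Clec1b* in URE GMPs against URE LSKs turned from −2.64 to 0.38 with the replicate block and lay between −3.55 and 3.07 when single libraries were left out, and the cause was not tested. Beside the calls given with the block in the report, the block changed no other call of a Clec gene. With it, 7 rather than 6 monocyte and macrophage markers were called in LSKs and 9 rather than 7 in GMPs, and 9 rather than 8 of the other C-type lectin genes in GMPs.

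Calls of *Clec1b* and *Clec9a* between cell types in WT were lost in the joint fit, and that of *Clec2i* in URE by DESeq2. That of *Clec4d* in URE was lost without a filter (0.97, adjusted p = 0.0588) and with a filter of 50 counts in 4 libraries (0.94, adjusted p = 0.0553). *Clec1a* in LSKs (−1.75, adjusted p = 0.00851) and *Clec2f* in GMPs (−2.80, adjusted p = 0.0254) were called by DESeq2. Without a filter, edgeR called *Clec18a* higher (adjusted p = 0.00652) and *Clec4b2* lower (adjusted p = 0.00632) in URE GMPs and *Clec2f* lower in URE LSKs (adjusted p = 0.0256), and DESeq2 made the same 3 calls (adjusted p = 4.27e-05, 0.000713 and 0.00110). *Clec2f* in LSKs was also called in the joint fit (adjusted p = 0.0123), and *Clec4b2* in GMPs in 5 fits that left out 1 library (−5.14 to −4.28). Between cell types *Clec4b2* was called higher in WT GMPs by DESeq2, without a filter and in 5 fits that left out 1 library (4.75 to 7.27), *Clec18a* higher in URE GMPs by DESeq2 and without a filter, and *Clec2f* higher in URE GMPs in the joint fit (4.53). Below 3 counts, 0.0977 to 0.164 CPM, no level was readable.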
